A study of Homo sapiens with 15 samples.

Results

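Expression of 10 genes of the TRAIL and FAS death receptor pathway was followed in OCI-AML5, an established human acute myeloid leukaemia cell line, in 15 RNA-seq libraries. The genes were picked by name. They are the ligand gene TNFSF10, which encodes TRAIL, the receptor genes TNFRSF10A, TNFRSF10B, TNFRSF10C, TNFRSF10D, FAS and TNFRSF1A, and FADD, CASP8 and CFLAR, whose products act inside the cell at engaged receptors. All 10 were found among the 19604 protein-coding genes listed. There were 5 groups of 3 libraries, all of cells kept in Alpha MEM with 20% serum and the cytokine GM-CSF at 10 ng/mL. In the drug experiment, the cells had no treatment (control) or received OTX015 or ARV-825, each at 1000 nM for 4 h. The labels name no vehicle for the control. OTX015 is a small molecule that keeps BET bromodomain proteins off acetylated histones. ARV-825 holds the same BET-binding part coupled to a cereblon ligand, and it directs BET proteins to ubiquitination and breakdown by the proteasome. In the other experiment, the cells had been transduced for 72 h with an shRNA that is non-targeting or with one aimed at RUNX1, a transcription factor of blood formation. The series concerns both interventions in leukaemia cells with a RUNX1 mutation, and all 5 groups are the same single cell line. The number of hairpins is not stated in the labels.

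TRAIL and the FAS ligand are members of the tumour necrosis factor family that kill cells by clustering receptors with an intracellular death domain. The clustered tails recruit the adaptor FADD, which gathers procaspase-8, the product of CASP8, into a death-inducing signalling complex where the protease activates itself. CFLAR encodes FLIP proteins, relatives of caspase-8 that enter the same complex and, in most settings, hold the protease in check. TNFRSF10A (also called DR4) and TNFRSF10B (DR5) are the signalling receptors of TRAIL. TNFRSF10C (DcR1) has no intracellular tail and TNFRSF10D (DcR2) has a shortened death domain, so both bind TRAIL without passing on the death signal and are known as decoy receptors. TNFRSF1A, the main receptor of tumour necrosis factor, uses the same adaptor and protease in a later complex. In myeloid leukaemia this pathway is known as a route by which immune cells and recombinant ligands kill blasts.

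Levels are in FPKM, which counts fragments relative to transcript length and library size, a unit that the deposited tables do not state and that was taken from the tool listed for them. The authors had normalized the drug libraries and the shRNA libraries in separate tables, so no test was made across the experiments. The sum of FPKM per library was 554570 to 656995, and the number of reads behind a value is unknown. As a check of the labels, RUNX1 was at 69.8, 72.2 and 69.8 FPKM with non-targeting shRNA and at 37.2, 42.9 and 36 FPKM with RUNX1 shRNA, a change of -0.85 on the log2 scale (adjusted p = 3.71e-05). The titles of those libraries name Runx3, but RUNX3 was at 27.02 ± 1.8 and 28.38 ± 0.771 FPKM (SD, n = 3 each; adjusted p = 0.341). Of 10 myeloid and progenitor markers, 8 averaged 1 FPKM or more in the control, ARV-825 and non-targeting groups and 7 in the OTX015 and RUNX1 shRNA groups, where MPO averaged 0.6529 and 0.9025 FPKM. In the control, OTX015 and ARV-825 groups, LYZ averaged 567.6, 411.4 and 499.4 FPKM and SPI1 208.4, 61.38 and 59.87 FPKM. PTPRC (96.44, 67.38 and 69.78 FPKM), CD33 (63.42, 34.83 and 34.22 FPKM) and CEBPA (33.12, 24.14 and 16.81 FPKM) were also lower with either drug. So was CD34 (3.47, 1.507 and 2.845 FPKM). MPO, at 1.006 FPKM in control, rose to 1.396 FPKM with ARV-825. Over the drug libraries ANPEP (0.04 FPKM) and KIT (0.0017 FPKM) were near 0. The 10 myeloid markers summed to 950 to 1020 FPKM in control libraries, 596 to 607 FPKM under OTX015 and 666 to 699 FPKM under ARV-825. In the shRNA experiment the sums were 920 to 952 FPKM for the non-targeting group and 793 to 815 FPKM for the RUNX1 shRNA group. With RUNX1 shRNA, LYZ (541.7 to 366.3 FPKM), SPI1 (159.4 to 142.7 FPKM) and CEBPA (43.28 to 38.47 FPKM) fell. CSF2RA (2.579 to 1.693 FPKM) and MPO (2.436 to 0.9025 FPKM) fell as well. In contrast, CD34 (15.33 to 29.77 FPKM), PTPRC (111.5 to 151.5 FPKM) and CD33 (62.28 to 71.69 FPKM) rose. Of the erythroid and of the epithelial and fibroblast markers, 0 of 6 and 0 of 7 averaged 1 FPKM in any group. The 8 T and NK cell markers summed to 35 to 36.9 FPKM in control libraries, 33 to 34.4 FPKM under OTX015 and 49.3 to 50.6 FPKM under ARV-825, most of it NKG7, while CD2 was at 0 in all 9 drug libraries and CD3E averaged 0.00674 FPKM. CD8A, the other marker reaching 1 FPKM there, averaged 1.646, 1.584 and 2.652 FPKM in the control, OTX015 and ARV-825 groups. With ARV-825 its rise over control was 0.46 on the log2 scale (adjusted p = 0.00264). The sum of the 8 T and NK cell markers was 6.39 to 7.39 FPKM in the non-targeting group and 3.86 to 5.09 FPKM in the RUNX1 shRNA group. The 5 B cell markers summed to 4.08 to 4.9, 2.15 to 2.76 and 4.68 to 6.42 FPKM in the control, OTX015 and ARV-825 groups, and to 2.99 to 3.86 and 2.44 to 4.45 FPKM in the non-targeting and RUNX1 shRNA groups. The 5 megakaryocyte and platelet markers summed to 1.79 to 3.2, 2.23 to 2.63 and 3.05 to 4.58 FPKM, and to 3.02 to 4.27 and 3 to 5.87 FPKM, in the same order. Of these, ITGA2B rose by 0.58 on the log2 scale with ARV-825 (adjusted p = 0.000494) and by 0.45 with RUNX1 shRNA (adjusted p = 0.0465), while PF4 and GP9 were at 0 in all drug libraries. GP1BB went the other way, with overlapping libraries. It averaged 0.5449 FPKM in control and 0.01909 FPKM with ARV-825, and 1.48 and 0.829 FPKM with non-targeting and RUNX1 shRNA (-0.50, adjusted p = 0.194). PPBP averaged 0.5129 FPKM in control and 0.7879 FPKM with ARV-825. The part of these shifts in the results that follow was not tested. In RNA of a whole culture, a fall can mean fewer cells of a kind or less of the RNA per cell, and the data do not tell these apart.

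In untreated cells the pathway was present from ligand to protease, and its receptors were mostly of the signalling kind. TNFRSF10B had 61.89 ± 1.79 FPKM (SD, n = 3), which placed it above 89% of tested genes. TNFRSF1A at 52.11 ± 3.6 FPKM and TNFSF10 at 46.65 ± 2.55 FPKM came next, and their libraries overlapped. CFLAR and FADD, both at 15.9 FPKM (SD 0.499 and 0.355), overlapped as well, as did TNFRSF10A (10.13 ± 0.216 FPKM) and CASP8 (10.12 ± 0.678 FPKM). FAS had 5.894 ± 0.437 FPKM. The decoy receptor genes stood lowest, TNFRSF10D at 2.72 ± 0.168 FPKM and TNFRSF10C at 1.014 ± 0.198 FPKM. With non-targeting shRNA, in the separately normalized table, TNFRSF1A was first at 67.33 ± 5.85 FPKM. It was followed by TNFSF10 (40.85 ± 0.823 FPKM, 39.9 to 41.5) and TNFRSF10B (39.43 ± 0.397 FPKM, 39.2 to 39.9), which lay next to each other, and then by FADD (18.86 ± 0.394 FPKM). CFLAR (12.48 ± 0.581 FPKM, 11.8 to 13) stood just above CASP8 (10.39 ± 1.41 FPKM, 8.87 to 11.6). The lower end held TNFRSF10A (7.854 ± 0.769 FPKM), FAS (3.939 ± 0.0214 FPKM), TNFRSF10D (1.888 ± 0.11 FPKM) and TNFRSF10C (0.9496 ± 0.177 FPKM). FASLG, the gene of the FAS ligand, and TNF did not pass the filter for testing, which asks for 1 FPKM or more on average across the libraries fitted.

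**Figure D1:**
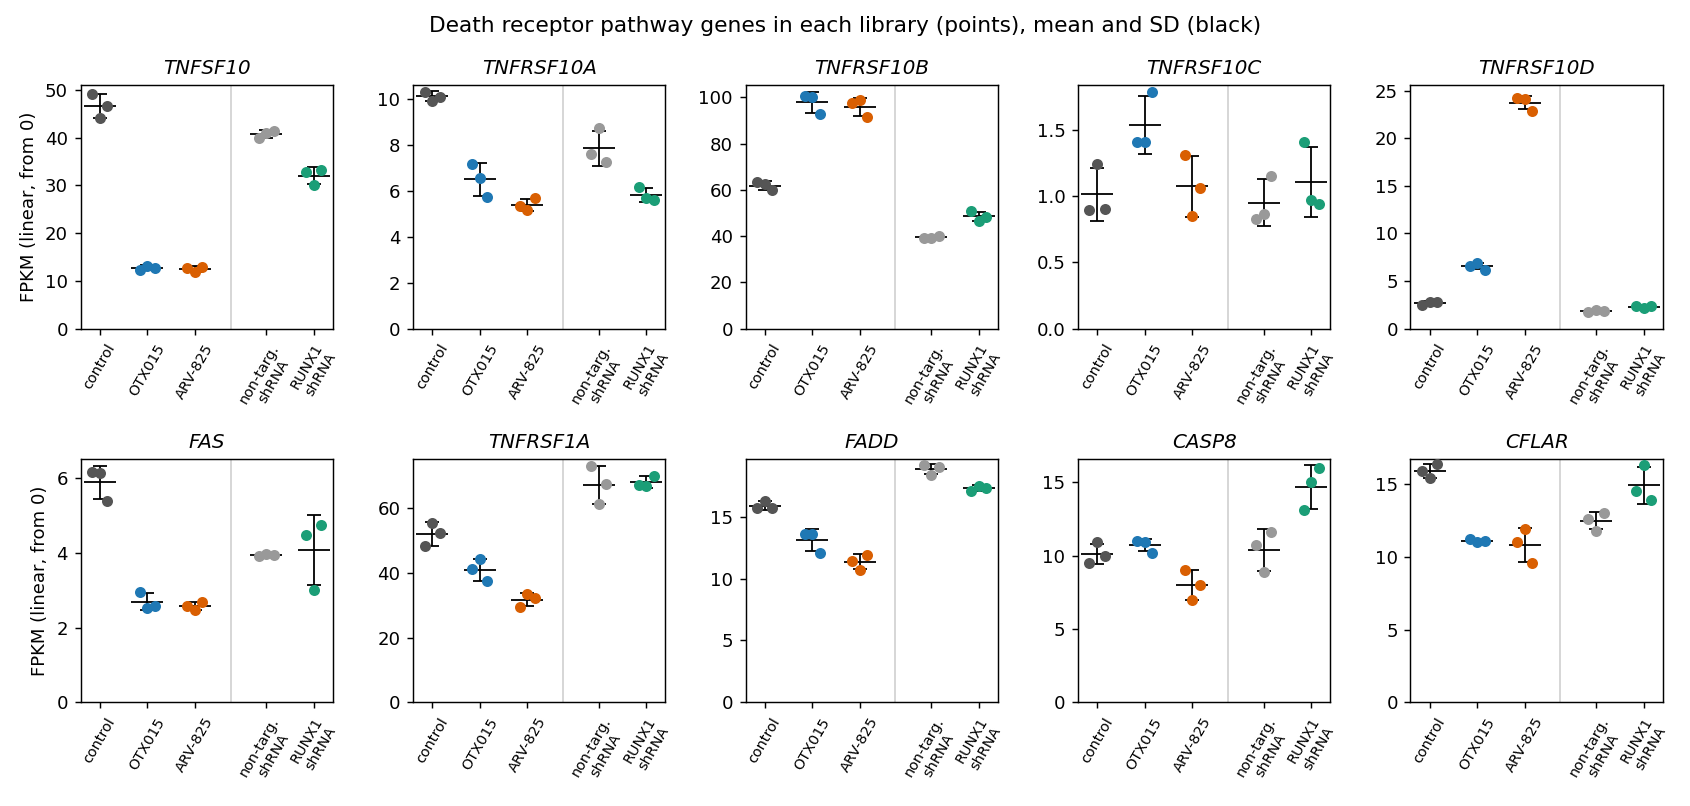
FPKM of each gene (linear axis from 0) in every library of the 5 groups, with points for libraries and black bars for the mean and SD (n = 3); the grey line separates the drug and shRNA experiments, which were normalized separately. TNFRSF10D rises from 2.53 to 2.85 FPKM in control to 22.9 to 24.2 FPKM with ARV-825, and TNFSF10 falls from 44.1 to 49.2 FPKM in control to 11.8 to 13.2 FPKM with either drug.

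Promoter sequence was looked at because RUNX1, a DNA-binding factor, was knocked down. The core that RUNX factors bind is usually written TGTGGT or TGCGGT, and windows of 250 bases before annotated starts were searched for both on either strand. RefSeq starts (build GRCh38.p14, not the build of the deposited tables) gave 13 windows for 6 of the 10 genes, CASP8, CFLAR, FADD, FAS, TNFRSF1A and TNFSF10. TGTGGT or TGCGGT occurred in 3 of these 13 windows, 1 each for CFLAR, CASP8 and FADD, and in 16.3% of all 35116 windows in the table. The first search took TGTGGT and TGTGGC as the core, and TGCGGT took the place of TGTGGC after its results were seen. A match is a run of letters and not a binding site. The 3 windows are shown 5′ to 3′ in the direction of transcription, in lower case with the RUNX core in capitals, because they belong to the genes of the signalling complex, of which CFLAR and CASP8 changed after RUNX1 knockdown. Their positions are chr2:201118466-201118715 (plus strand) for CFLAR, chr2:201260286-201260535 (plus strand, 1 of 3 CASP8 windows) for CASP8 and chr11:70203046-70203295 (plus strand) for FADD. CFLAR had further windows as well, and no other window of CFLAR or CASP8 held a core.
CFLAR: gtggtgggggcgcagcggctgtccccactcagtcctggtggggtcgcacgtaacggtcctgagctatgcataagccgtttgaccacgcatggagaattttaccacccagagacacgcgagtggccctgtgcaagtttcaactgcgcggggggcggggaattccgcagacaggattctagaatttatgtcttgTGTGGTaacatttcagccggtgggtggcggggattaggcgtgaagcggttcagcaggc
CASP8: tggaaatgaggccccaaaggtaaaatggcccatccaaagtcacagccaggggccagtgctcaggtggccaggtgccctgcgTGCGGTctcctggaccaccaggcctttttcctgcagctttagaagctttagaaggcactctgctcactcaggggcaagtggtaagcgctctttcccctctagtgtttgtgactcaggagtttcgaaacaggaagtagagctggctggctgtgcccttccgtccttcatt
FADD: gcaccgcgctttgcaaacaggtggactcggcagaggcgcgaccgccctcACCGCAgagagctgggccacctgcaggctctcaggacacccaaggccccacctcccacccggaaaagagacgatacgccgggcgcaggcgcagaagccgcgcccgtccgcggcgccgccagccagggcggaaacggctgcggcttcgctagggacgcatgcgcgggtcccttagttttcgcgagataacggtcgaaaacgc
In FADD the capitals read ACCGCA, the reverse complement of TGCGGT, and in CFLAR and CASP8 the core reads forward. The first capital lies 58, 169 and 201 bases before the start in CFLAR, CASP8 and FADD. TGTGGC, the form set aside, was in 3 of the 13 windows, of CASP8, TNFRSF1A and TNFSF10, and in 14.7% of all windows. The E-box CACGTG, the usual site of MYC, was in none of the 13 windows and in 6.34% of all windows. CCAAT was in 2 of the 13, of CASP8 and TNFRSF1A, and in 32% of all.

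ARV-825 and OTX015 both lowered the mRNA of TNFSF10, TNFRSF10A, FAS, TNFRSF1A, FADD and CFLAR. Both raised TNFRSF10B, a signalling receptor gene, and TNFRSF10D, a decoy receptor gene. With ARV-825, 2 of the 10 genes were higher and 7 lower than in control at an adjusted p under 0.05 (limma over all 10819 tested genes, with Benjamini-Hochberg adjustment). Of all tested genes, 74.2% were called in this comparison, 35.8% higher and 38.4% lower. With OTX015, 3 were higher and 6 lower, against 69.6% of all tested genes called, 36.1% higher and 33.5% lower. A call was therefore common to most genes here, and the size and direction of each change carry more than the count. The median change of the 10 genes was -0.49 with ARV-825 and -0.30 with OTX015 on the log2 scale, beside -0.01 and 0.03 over all tested genes. Libraries did not overlap with control for 9 of the 10 genes under either drug, against 76.2% of tested genes with ARV-825 and 75.3% with OTX015. The comparisons with control share the control libraries, so their likeness is not evidence from separate experiments. Log2 changes here are of FPKM + 1, a scale that understates changes of genes near 1 FPKM.

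TNFSF10, the ligand gene, was at 49.2, 44.1 and 46.7 FPKM in the control libraries. It was at 12.2, 13.2 and 12.8 FPKM with OTX015 and at 12.8, 11.8 and 13 FPKM with ARV-825. Every treated library was thus below every control library, and the treated groups overlapped each other. The ratio of means was 3.66-fold lower with OTX015 and 3.71-fold lower with ARV-825, with log2 changes of -1.79 ± 0.058 (SE; adjusted p = 2.61e-09) and -1.81 ± 0.058 (adjusted p = 1.6e-09). With OTX015, 1.39% of tested genes had a larger change in either direction, and with ARV-825 2.5% did.

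Of the signalling receptors of TRAIL, one fell and one rose. TNFRSF10A was at 10.3, 9.91 and 10.1 FPKM in control, 7.18, 6.55 and 5.75 FPKM with OTX015 and 5.32, 5.16 and 5.67 FPKM with ARV-825. The 3 groups did not overlap. Its log2 change was -0.58 ± 0.077 with OTX015 (adjusted p = 6.02e-05) and -0.80 ± 0.077 with ARV-825 (adjusted p = 3.47e-06). TNFRSF10B, the receptor gene with the highest FPKM in control, was at 63.4, 62.4 and 59.9 FPKM there. It reached 100.7, 100 and 92.8 FPKM with OTX015 and 97.5, 98.8 and 91.4 FPKM with ARV-825. Both treated groups lay above control and overlapped each other. The log2 changes were 0.65 ± 0.047 (adjusted p = 5.65e-07) and 0.62 ± 0.047 (adjusted p = 5.45e-07), which correspond to ratios of means of 1.58 and 1.55.

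The decoy receptor genes differed from each other. TNFRSF10D was at 2.53, 2.85 and 2.78 FPKM in control, 6.58, 6.89 and 6.2 FPKM with OTX015 and 24.2, 24.1 and 22.9 FPKM with ARV-825. The 3 groups were far apart relative to their spread. It rose by 1.02 ± 0.064 on the log2 scale with OTX015 (2.41 times the control mean; adjusted p = 2e-07) and by 2.73 ± 0.064 with ARV-825 (8.73 times; adjusted p = 2.8e-10). With ARV-825 it ranked 30 from the highest of 10819 tested genes. TNFRSF10C, near the limit of testing, was at 0.894, 1.24 and 0.906 FPKM in control, 1.41, 1.41 and 1.79 FPKM with OTX015 and 1.31, 0.85 and 1.06 FPKM with ARV-825. With OTX015 it rose by 0.33 ± 0.111 (adjusted p = 0.0197), a call lost without control replicate 1 (0.29, adjusted p = 0.0695), without control replicate 3 (0.30, adjusted p = 0.07) or without OTX015 replicate 3 (0.26, adjusted p = 0.0767). With ARV-825 its libraries overlapped those of control, at a log2 change of 0.04 (adjusted p = 0.749).

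FAS, the receptor of the FAS ligand, was at 6.16, 6.13 and 5.39 FPKM in control, 2.96, 2.54 and 2.58 FPKM with OTX015 and 2.57, 2.47 and 2.7 FPKM with ARV-825. It was below all control libraries in all 6 treated ones, with log2 changes of -0.90 ± 0.079 (adjusted p = 2.42e-06) and -0.94 ± 0.079 (adjusted p = 1.19e-06). TNFRSF1A was at 48.4, 55.6 and 52.3 FPKM in control, 41.4, 44.2 and 37.5 FPKM with OTX015 and 29.6, 33.6 and 32.2 FPKM with ARV-825. The groups lay in 3 separate steps, with log2 changes of -0.34 ± 0.072 (adjusted p = 0.00153) and -0.70 ± 0.072 (adjusted p = 5.95e-06).

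In the signalling complex, log2 changes lay between -0.52 and 0.08. FADD, the adaptor gene, was at 15.7, 16.3 and 15.7 FPKM in control, 13.6, 13.6 and 12.1 FPKM with OTX015 and 11.4, 10.7 and 11.9 FPKM with ARV-825. The groups did not overlap, and the log2 changes were -0.26 ± 0.062 (adjusted p = 0.00303) and -0.45 ± 0.062 (adjusted p = 5.35e-05). CASP8 was at 9.53, 10.9 and 9.97 FPKM in control and at 11, 10.9 and 10.2 FPKM with OTX015, which overlapped (0.08, adjusted p = 0.445). With ARV-825 it was at 9.02, 6.97 and 7.99 FPKM, below every control library, a log2 change of -0.31 ± 0.085 (adjusted p = 0.00672). CFLAR, the gene of the caspase-8 antagonist FLIP, was at 15.9, 15.4 and 16.4 FPKM in control, 11.2, 11 and 11.1 FPKM with OTX015 and 11, 11.9 and 9.58 FPKM with ARV-825. Both treated groups were below control, with log2 changes of -0.48 ± 0.071 (adjusted p = 0.00012) and -0.52 ± 0.071 (adjusted p = 5.38e-05). The ratio of CFLAR to CASP8 FPKM, a description without a test, was 1.42 to 1.67 in control libraries, 1.01 to 1.08 under OTX015 and 1.2 to 1.71 under ARV-825. Thus it lay below control in every OTX015 library and overlapped control with ARV-825.

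**Figure D2:**
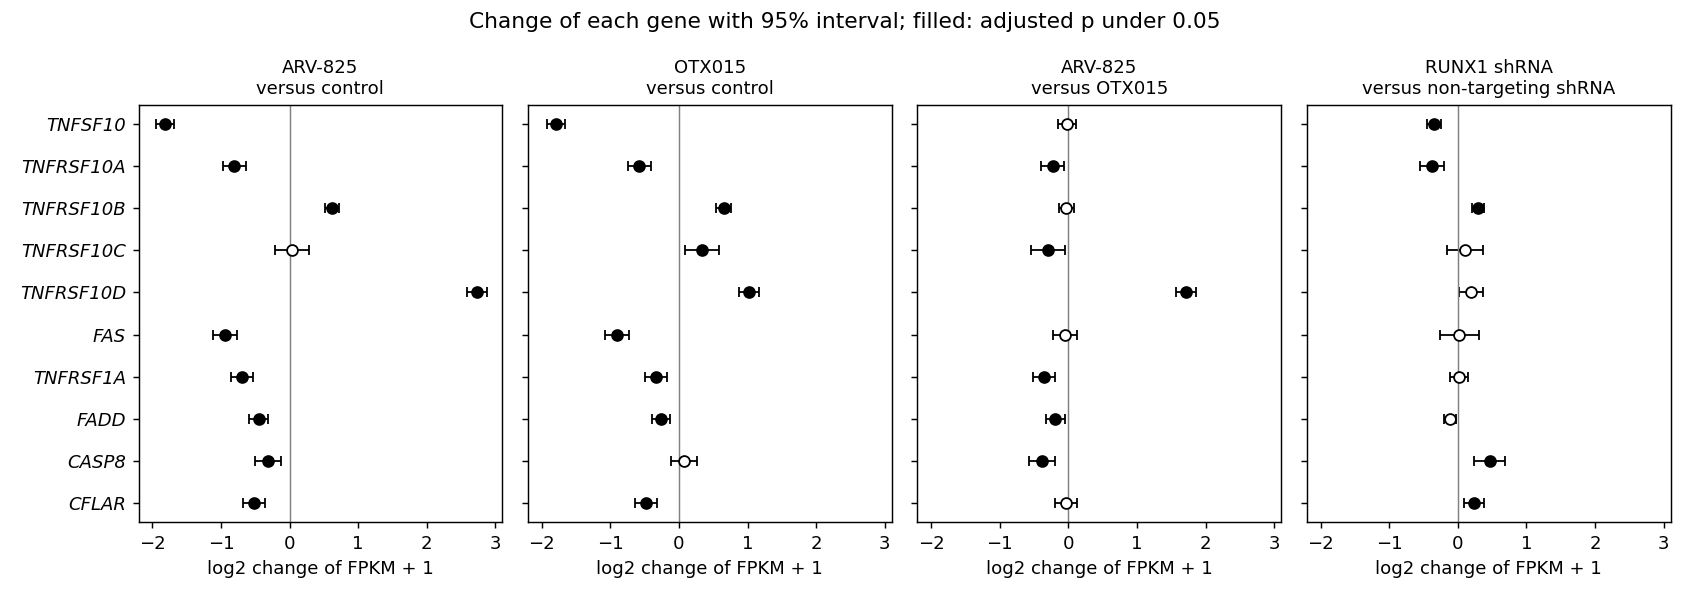
Log2 change of FPKM + 1 of each gene in the 4 comparisons, with its 95% interval from limma; filled points have an adjusted p under 0.05. TNFRSF10D stands apart in both panels that set ARV-825 against another group (2.73 and 1.71), while TNFSF10, TNFRSF10B, FAS and CFLAR lie near 0 between the drugs.

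The drugs were compared directly at the same dose and time. How strongly each blocked BET proteins at that dose was not measured. MYC averaged 287.8 FPKM in control, 113.3 FPKM with OTX015 and 23.03 FPKM with ARV-825. The part of the cereblon ligand in a difference between the drugs was not tested. Among the 10 genes, TNFRSF10D separated them most, being 3.62 times higher with ARV-825 than with OTX015 (log2 difference 1.71 ± 0.064, 95% interval 1.57 to 1.85, adjusted p = 6.64e-08). By that difference it ranked 14 from the highest of 10819 tested genes, and 0.231% of them differed more in either direction. Of the 10 genes, 1 was higher and 5 were lower with ARV-825, and 4 were not called. The share of all tested genes called was 58.1%, with 24.7% higher and 33.4% lower. Libraries did not overlap for 6 of the 10, against 62.0% of tested genes. All 10 genes were compared for this 1 pair of compounds, with p-values adjusted over all tested genes. CASP8 (-0.39 ± 0.085, adjusted p = 0.00282) and TNFRSF1A (-0.36 ± 0.072, adjusted p = 0.00156) were lower with ARV-825 and kept that call under every alternative run, each library left out included.

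TNFRSF10A, TNFRSF10C and FADD were also lower with ARV-825 than with OTX015, by smaller amounts whose calls depended on single libraries or on settings. TNFRSF10A differed by -0.23 ± 0.077 (adjusted p = 0.0264). Its call was lost without OTX015 replicate 1 (-0.16, adjusted p = 0.112), OTX015 replicate 2 (-0.22, adjusted p = 0.0687), ARV-825 replicate 1 (-0.22, adjusted p = 0.0636) or ARV-825 replicate 2 (-0.20, adjusted p = 0.0674), and when only the libraries of both drugs were fitted (adjusted p = 0.0611). FADD differed by -0.19 ± 0.062 (adjusted p = 0.0211), and lost its call without OTX015 replicate 1 (-0.17, adjusted p = 0.0764), OTX015 replicate 2 (-0.16, adjusted p = 0.0771) or ARV-825 replicate 2 (-0.15, adjusted p = 0.0674). TNFRSF10C differed by -0.29 ± 0.111 (adjusted p = 0.0419), with a call under 2 of 12 alternatives, 1 of them among the 6 fits that left out 1 library. With every library kept, its adjusted p was 0.0504 with a pseudocount of 0.1, 0.089 with genes of low level left in, 0.0547 after median-ratio rescaling and 0.061 when only the libraries of both drugs were fitted. Without OTX015 replicate 1, 2 or 3 its adjusted p was 0.059, 0.0546 and 0.144 at differences of -0.33, -0.33 and -0.22. Without ARV-825 replicate 2 or 3 it was 0.134 and 0.0738 at -0.21 and -0.29. For the other 4 genes the intervals bound the difference between the drugs. They were -0.149 to 0.109 for TNFSF10 (adjusted p = 0.79), -0.133 to 0.0762 for TNFRSF10B (adjusted p = 0.629), -0.219 to 0.131 for FAS (adjusted p = 0.655) and -0.195 to 0.119 for CFLAR (adjusted p = 0.669).

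The makeup of TRAIL receptor mRNA followed from these changes and is given as levels per library, with no test. In control the 4 receptor genes summed to 73.7 to 77.1 FPKM, of which TNFRSF10A and TNFRSF10B made up 94.6 to 95.6% and TNFRSF10D 3.28 to 3.77%. With OTX015 the sum was 107 to 116 FPKM and the share of TNFRSF10D 5.68 to 6%. With ARV-825 the sum was 121 to 129 FPKM, the share of TNFRSF10D 18.7 to 18.9% and that of the signalling receptor genes 80.1 to 80.7%. The decoy share was thus higher in every ARV-825 library than in any other drug-experiment library, although TNFRSF10B alone remained at 3.99 to 4.11 times TNFRSF10D in FPKM. TNFRSF10B exceeded TNFRSF10A 5.91 to 6.3 times in control libraries, 14 to 16.1 times under OTX015 and 16.1 to 19.2 times under ARV-825. These are mRNA levels, and receptor protein at the cell surface was not measured in these files. In the GENCODE 29 transcripts, no run of 50 bases was shared between any pair of these 4 genes (0 shared words for each of the 6 pairs). Read length and the handling of reads with several matches are not stated in the labels.

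**Figure D3:**
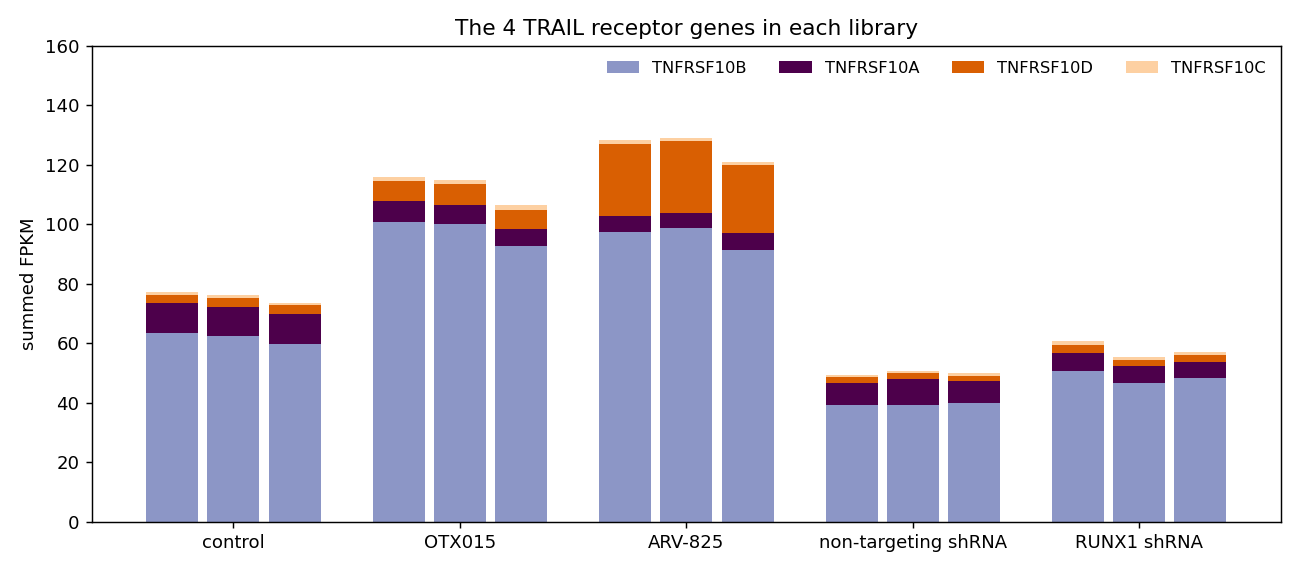
Summed FPKM (axis from 0) of the 4 TRAIL receptor genes, 1 stacked bar per library in the 5 groups. TNFRSF10B makes up most of every bar, and the TNFRSF10D segment grows from 3.28 to 3.77% of the sum in control to 18.7 to 18.9% with ARV-825.

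With RUNX1 shRNA, log2 changes of the 10 genes lay between -0.38 and 0.46. Knockdown lowered TNFSF10 and TNFRSF10A and raised TNFRSF10B, CASP8 and CFLAR, while TNFRSF10D, FAS, TNFRSF1A, FADD and TNFRSF10C did not pass the test. The 3 higher and 2 lower calls among 10 genes stand beside 27.4% of 10925 tested genes called, 13.5% higher and 13.8% lower. The median change of the 10 genes was 0.07, beside -0.01 over all tested genes. The groups did not overlap for 7 of the 10 genes, against 44.1% of tested genes.

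TNFSF10 was at 39.9, 41.1 and 41.5 FPKM with non-targeting shRNA and at 32.9, 30 and 33.2 FPKM with RUNX1 shRNA. All 3 knockdown libraries were below the others, a log2 change of -0.34 ± 0.044 (adjusted p = 0.000872). TNFRSF10A was at 7.6, 8.72 and 7.25 FPKM and then at 6.15, 5.68 and 5.59 FPKM, again without overlap (-0.38 ± 0.076, adjusted p = 0.00777). Its adjusted p was 0.0522 when genes of low level were left in. TNFRSF10B was at 39.2, 39.2 and 39.9 FPKM and rose to 50.7, 46.7 and 48.2 FPKM with RUNX1 shRNA, every one of them higher (0.29 ± 0.036, adjusted p = 0.00078). The signalling receptors of TRAIL thus moved in opposite directions here too, and TNFRSF10B was 4.5 to 5.5 times TNFRSF10A in the non-targeting group and 8.22 to 8.63 times in the RUNX1 shRNA group.

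CASP8 was at 10.7, 8.87 and 11.6 FPKM with non-targeting shRNA and at 13.1, 15 and 16 FPKM with RUNX1 shRNA, without overlap (0.46 ± 0.1, adjusted p = 0.0107). Its adjusted p was 0.0959 with genes of low level left in. CFLAR was at 12.6, 11.8 and 13 FPKM and then at 14.5, 16.3 and 13.9 FPKM (0.24 ± 0.065, adjusted p = 0.0287). The groups did not overlap, but the call held under 5 of 12 alternatives, and its adjusted p was 0.121 with genes of low level left in. It held in 1 of 6 fits that left out 1 library, the one without RUNX1 shRNA replicate 3. Without non-targeting replicate 1, 2 or 3 its adjusted p was 0.066, 0.0997 and 0.0529 (changes of 0.25, 0.20 and 0.26), and without RUNX1 shRNA replicate 1 or 2 it was 0.0516 and 0.0621 (0.25 and 0.17). The ratio of CFLAR to CASP8 FPKM was 1.11 to 1.33 in the non-targeting group and 0.87 to 1.11 in the RUNX1 shRNA group. FADD was at 19.2, 18.4 and 19 FPKM and at 17.1, 17.5 and 17.3 FPKM, a change of -0.12 that did not pass (adjusted p = 0.0545). It passed under 1 of 12 alternatives, with genes of low level left in (adjusted p = 0.0307).

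TNFRSF10D, the gene with the strongest response to ARV-825 among the 10, was at 1.8, 2.01 and 1.86 FPKM with non-targeting and at 2.42, 2.15 and 2.37 FPKM with RUNX1 shRNA. These values did not overlap, and the change of 0.20 missed the threshold (adjusted p = 0.0893). It passed under 1 of 11 alternatives, the fit without a mean-variance trend (adjusted p = 0.0305). FAS was at 3.92, 3.96 and 3.94 FPKM and at 4.47, 3.02 and 4.75 FPKM, where the knockdown libraries lay on both sides of the others (0.02, adjusted p = 0.907). TNFRSF1A was at 73, 61.4 and 67.6 FPKM and at 67.3, 67 and 70.1 FPKM (0.02, adjusted p = 0.818). TNFRSF10C was at 0.827, 0.869 and 1.15 FPKM and at 1.41, 0.969 and 0.94 FPKM (0.11, adjusted p = 0.52). Whether the drug and knockdown effects differ was not tested, since the tables were normalized separately. Of the 3 genes with a RUNX core in the windows shown above, CASP8 and CFLAR rose and FADD did not pass the test. Of the genes whose windows held no such core, TNFSF10 fell, while FAS and TNFRSF1A did not pass. This grouping rests on a core chosen after the first results were seen. With TGTGGC in place of TGCGGT, TNFSF10 and TNFRSF1A would hold a match and FADD would not. Whether a core goes with a change was not tested.

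**Figure D4:**
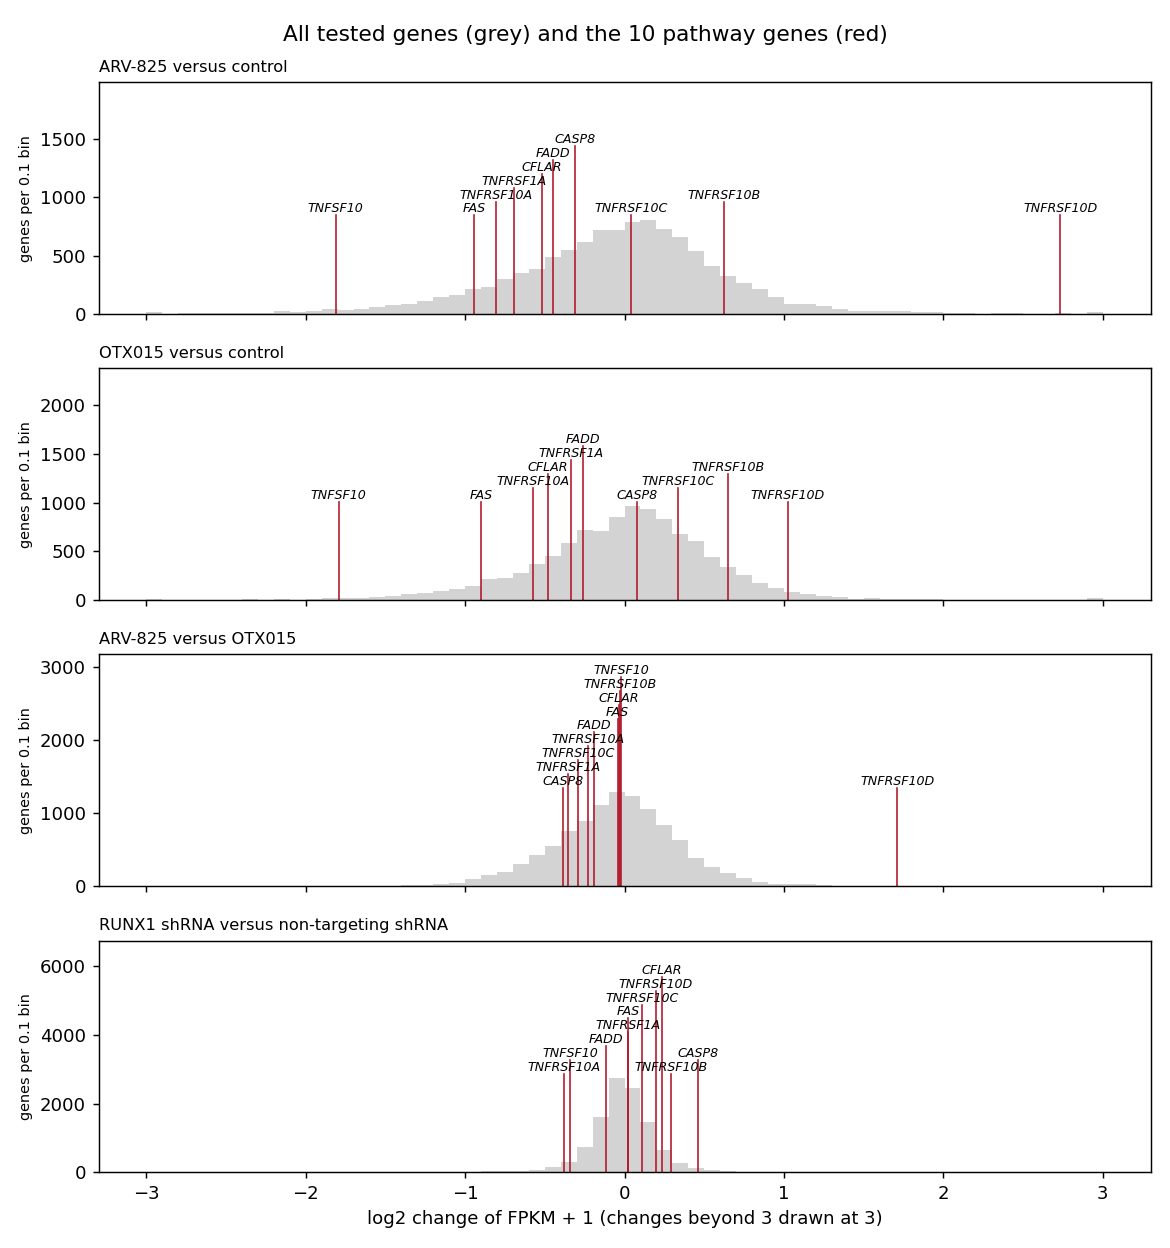
Log2 change of FPKM + 1 of all tested genes as grey histograms (bins of 0.1) with the 10 genes as red lines, for the 4 comparisons. TNFRSF10D lies in the far upper tail for ARV-825 against control and against OTX015, TNFSF10 lies in the lower tail for both drugs, and with RUNX1 shRNA the lines fall between -0.38 and 0.46.

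Among 18 other ligand and receptor genes of the tumour necrosis factor family, 6 were expressed enough to test, all of them receptors. With ARV-825, 1 rose, 4 fell and 1 was not called, and with OTX015 1 rose and 5 fell, so that 83.3% and 100% were called beside 74.2% and 69.6% of all tested genes. TNFRSF21, the death domain receptor DR6, changed by -1.33 with ARV-825 and -0.84 with OTX015. LTBR, the lymphotoxin beta receptor, changed by -0.85 and -1.02, and EDA2R, a receptor of ectodysplasin, by -0.93 and -0.74. TNFRSF12A, the receptor of TWEAK, rose by 0.17 with ARV-825 and by 0.89 with OTX015. With RUNX1 shRNA, TNFRSF14 (0.39) and TNFRSF1B (0.23), the second tumour necrosis factor receptor, rose and TNFRSF21 fell by 0.36.

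Of 27 further genes of the receptor complex and its checkpoint, 24 were tested. With ARV-825, 10 rose, 8 fell and 6 were not called. With OTX015, 12 rose, 6 fell and 6 were not called. The share called was 75.0% with either drug, close to the 74.2% and 69.6% of all tested genes, with medians of -0.05 and 0.19 beside -0.01 and 0.03 over all tested genes. RIPK1, the kinase that joins death receptor complexes and branches to survival or death, rose by 0.93 with ARV-825 and 0.89 with OTX015. CASP8AP2, a caspase-8 binding protein also known as FLASH, rose by 0.80 and 0.57. ITCH, a ubiquitin ligase reported to target FLIP, rose by 0.59 with ARV-825 and 0.56 with OTX015. OTULIN, a deubiquitinase of linear chains, rose by 0.15 with ARV-825 and 0.69 with OTX015. PEA15, a death effector domain protein, rose by 0.59 and 0.68. Among the genes that fell, TRAF3 changed by -1.24 and -1.35, and MLKL, the executor of necroptosis, by -1.05 and -1.41. MAP3K5, the stress kinase ASK1, changed by -1.13 with ARV-825 and -0.42 with OTX015, and TRAF2 by -0.43 and -0.51. With RUNX1 shRNA, limma called 0 of the 24 higher (4 at an unadjusted p under 0.05) and 5 lower, a share of 20.8% beside 27.4% of all tested genes, among them TRADD (-0.35), the adaptor of TNFRSF1A, TNFAIP3 (-0.27), which encodes A20, and MAP3K7 (-0.22).

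From the caspase execution and mitochondrial arm, 19 genes are reported, and all 19 were tested. With ARV-825, 4 rose, 9 fell and 6 were not called. With OTX015, 5 rose, 8 fell and 6 were not called. The share called was 68.4% with either drug, beside 74.2% and 69.6% of all tested genes. DFFB, which encodes the nuclease that cuts DNA in dying cells, fell from 7.56 FPKM in control to 1.03 FPKM with ARV-825 (-2.07) and by 1.32 on the log2 scale with OTX015. CASP2 fell by 0.70 with ARV-825 and 0.36 with OTX015. BAX, which encodes a pore-forming protein of mitochondria, fell by 0.41 with either drug. BID, the link from caspase-8 to mitochondria, changed by -0.22 with ARV-825 and -0.43 with OTX015, and DFFA by -0.35 and -0.42. CYCS, the cytochrome c gene, and XIAP, a caspase inhibitor, rose with ARV-825 by 0.45 and 0.30, and CYCS rose by 0.19 with OTX015. CASP9, the initiator of the mitochondrial route, rose by 0.26 with ARV-825 and 0.50 with OTX015. XIAP (0.44) and DIABLO (0.43), which encodes an antagonist of XIAP, also rose with OTX015. With RUNX1 shRNA, where 26.3% of the list and 27.4% of all tested genes were called, 2 of 19 rose, BIRC6 (0.36) and PARP1 (0.15), and 3 fell, CYCS (-0.70), ENDOG (-0.31) and HTRA2 (-0.18).

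Between the drugs, 58.1% of all tested genes were called, 24.7% higher and 33.4% lower with ARV-825. Of the 24 complex genes, 3 were higher and 10 lower with ARV-825 than with OTX015, MAP3K5 (-0.71) and MLKL (0.36) at either end, a share of 54.2%. Of the 19 execution genes, 4 were higher and 6 lower, from DFFB (-0.75) to BIRC5 (0.38), which encodes survivin, a share of 52.6%. Of the 6 receptor genes, TNFRSF14 was higher (0.63), 3 were lower, TNFRSF12A (-0.72) first among them, and 2 were not called.

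**Figure D5:**
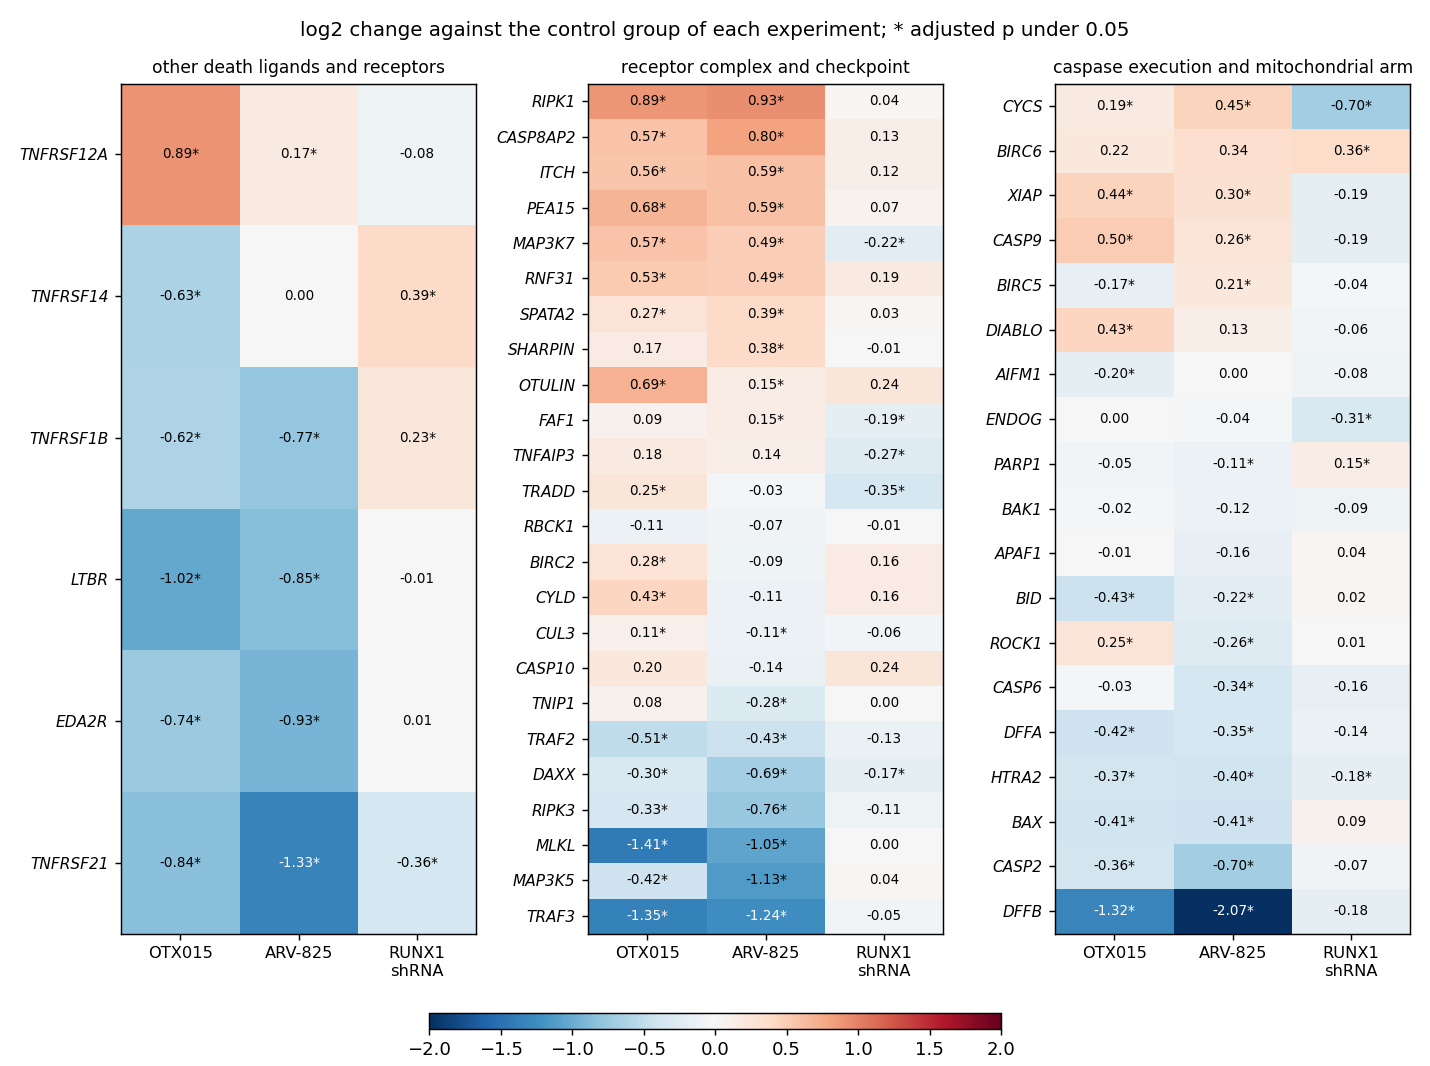
Log2 change of FPKM + 1 against the control group of each experiment for the tested genes of the 3 further pathway lists (colour and number; * marks an adjusted p under 0.05), ordered by the ARV-825 value. Rises and falls stand side by side in the complex and execution lists under both drugs, for example RIPK1 (0.93) and TRAF3 (-1.24) with ARV-825, and most RUNX1 shRNA values are closer to 0.

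For the 3 genes with the largest changes, the genes of most similar pattern were found as the smallest root-mean-square difference in log2 change from the control group over all 15 libraries, among 10573 genes tested in both experiments. They are a description, with nothing implied of shared function. Nearest to TNFRSF10D were ZNF596 (0.263), RP11-159D12.5 (0.274) and VAMP1 (0.377). ZNF596, a zinc finger gene, changed by 2.37 with ARV-825 and 0.86 with OTX015, so that it too separated the drugs. Nearest to TNFSF10 were MPEG1 (0.088), a macrophage perforin-like gene, P2RY6 (0.089), a nucleotide receptor gene, and ALDH1B1 (0.098). MPEG1 changed by -1.83 with ARV-825, -1.74 with OTX015 and -0.37 with RUNX1 shRNA. Nearest to FAS were PRRG4 (0.097), EEF1E1 (0.099) and NOP2 (0.103), a nucleolar RNA methyltransferase gene. The distances show that TNFRSF10D had no neighbour as close as those of TNFSF10 and FAS.

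In the GENCODE 29 annotation, the 4 TRAIL receptor genes lie in 1 cluster on chromosome 8 with only the coding gene AC107959.5 among them, and CFLAR and CASP8 on chromosome 2 with only CASP10 between them among coding genes. Within the cluster on chromosome 8, TNFRSF10D and TNFRSF10B rose and TNFRSF10A fell with both drugs. CFLAR and CASP8 both fell with ARV-825 and both rose with RUNX1 shRNA, while with OTX015 CFLAR fell and CASP8 was not called. Flanking genes were looked up after the values of the 10 genes were seen. CHMP7, beside TNFRSF10A, changed by -0.26 with ARV-825 (adjusted p = 0.000704) and by 0.59 with OTX015 (adjusted p = 1.9e-06). CASP10, a paralogue of CASP8, was at 2.54 FPKM with ARV-825 and 2.89 FPKM in control (-0.14, adjusted p = 0.202). CASP10 changed by 0.20 with OTX015 (adjusted p = 0.0747) and differed by -0.34 between the drugs (adjusted p = 0.00953). NDUFB3, on the other side of CFLAR, rose by 0.40 with ARV-825 (adjusted p = 2e-05) and by 0.20 with OTX015 (adjusted p = 0.00372). TNFRSF10C, near the limit of testing, overlaps the coding gene AC107959.5 on the same strand. The strand of the libraries is not stated, and TNFRSF10B overlaps RHOBTB2, and FAS overlaps ACTA2, on the opposite strand. TNFRSF10A, TNFSF10, FADD and CFLAR overlap noncoding genes or pseudogenes on the opposite strand, whose levels are not given here. RHOBTB2, at 5.3 FPKM in control, changed by 0.45 with ARV-825 (adjusted p = 0.00077), 0.18 with OTX015 (adjusted p = 0.0876) and 0.25 with RUNX1 shRNA (adjusted p = 0.0251). ACTA2, at 20.6 FPKM in control, changed by 0.31 with ARV-825 (adjusted p = 0.00441) and -0.43 with OTX015 (adjusted p = 0.000676), whereas FAS fell with both. The part of reads from these overlapping genes was not tested.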

How the data were processed

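Total RNA of 15 OCI-AML5 libraries was sequenced from libraries made with an Illumina kit, per the labels' protocols. The libraries of a group are triplicates described as biological, with no batch named, and p-values measure only their spread, which may be partly technical. The authors deposited 1 table of 9 drug libraries and 1 of 6 shRNA libraries, read as FPKM and, from an abbreviation in the table names, as values that the authors quantile normalized, each table on its own. Library medians over the listed genes were still unequal. They were 1.795 to 1.924 FPKM with ARV-825, 2.056 to 2.098 FPKM with OTX015 and 2.151 to 2.205 FPKM in control. The reason was not tested. Per the submitters' processing notes, TopHat2 2.0, Cufflinks 2.0 and the build hg19 were used, while the annotation used for counting is not stated. Depth is unknown, so no counting interval can be given, and a change of the RNA amount per cell would not be visible.

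Of 19620 entries, 16 pseudoautosomal copies were left out, and 28 symbols turned into dates were restored from their gene IDs (GENCODE 29, another build, used for symbols, gene order and transcript words). Values were analysed as log2(FPKM + 1). Genes averaging 1 FPKM or more in a fit were tested by limma 3.58.1 under R 4.3.3 (lmFit, then eBayes with a trend; two-sided), with Benjamini-Hochberg adjustment over all of them and a threshold of 0.05. The 9 drug libraries shared 1 fit. All 10 genes passed the filter in both tables, TNFRSF10C narrowly, at means of 1.21 and 1.03 FPKM. All 10 are described. From each further list, up to 3 called rises and 3 called falls per comparison were named, apart from some genes that are not reported here, and similar patterns were sought for the 3 genes of largest change. The members, lists and rules were chosen with earlier results of these data known. Alternatives were a pseudocount of 0.1, no filter, a mean of at least 5 FPKM, median-ratio rescaling, no trend, a replicate block, only the 2 groups compared, and each library left out.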

Additional observations from a re-analysis of the deposited data

How the results depend on the processing

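Of 40 results (10 genes in 4 comparisons), 29 were called, of which 22 were called under every alternative run for them and 0 changed direction. The 7 calls lost under at least 1 alternative were those of TNFRSF10C with OTX015, of TNFRSF10A, TNFRSF10C and FADD between the drugs, and of TNFRSF10A, CASP8 and CFLAR with RUNX1 shRNA. With RUNX1 shRNA, TNFRSF10D gained a call without the mean-variance trend (adjusted p = 0.0305) and FADD without the filter (adjusted p = 0.0307). Between the drugs, the main fit called 5 of the 10 genes lower and 1 higher, beside 33.4% and 24.7% of all tested genes. When only the 2 groups compared were fitted, 3 of the 10 were called lower. With 1 library left out, 3 to 5 of the 10 were called between the drugs, 2 to 4 of them lower. The shares of all tested genes under these alternatives are not given here. Without the filter, the RUNX1 shRNA comparison gave 1884 called genes, 897 higher and 987 lower, with 3 of the 10 genes called and 1 of them higher, over 19604 tested genes. With 1 library left out, 966 to 1436 genes were called lower there.

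Changes that were not called and turned sign were near 0. With median-ratio rescaling, the difference between the drugs was 0.00594 for TNFRSF10B and 0.0122 for TNFSF10. With 1 library left out, that difference ran from -0.0657 to 0.00551 for TNFRSF10B, from -0.074 to 0.00723 for FAS, from -0.0497 to 0.0206 for TNFSF10 and from -0.10 to 0.0403 for CFLAR. TNFRSF10C ran from -0.0405 to 0.12 with ARV-825 against control. With RUNX1 shRNA, FAS ran from -0.074 to 0.18 and TNFRSF1A from -0.0436 to 0.0802. Rescaling moved the median change of all genes by less than 0.1.

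Replicate numbers recur across groups, but libraries of the same number did not deviate together (correlations of -0.32 to 0.06), so the numbers were not taken to pair them. With a replicate block, 9, 9, 5 and 4 of the 10 genes were called in the comparisons ARV-825 against control, OTX015 against control, ARV-825 against OTX015 and RUNX1 against non-targeting shRNA. The shares of all tested genes called with the block are not given here. In the main fit, without a block, 74.2, 69.6, 58.1 and 27.4% of all tested genes were called, in the same order. The counts are thus not read as particular to the 10 genes. The calls lost with the block were TNFRSF10C between the drugs (adjusted p = 0.0739) and CFLAR with RUNX1 shRNA (adjusted p = 0.0616).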
